A study of Homo sapiens with 6 samples.

Results

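The BCL2 family decides whether the outer membrane of the mitochondrion is opened during apoptosis, and 10 of its genes are described here in HCT116 cells, a human colon carcinoma line. The 10 genes were taken by symbol from the deposited table of estimated counts, in which each matched 1 of 35106 rows, and all 10 were among the 13718 genes with enough counts to be tested. RNA sequencing libraries were made from cells given curcumin, the yellow polyphenol of turmeric, for 24 h (3 libraries) and from untreated cells (3 libraries). The labels give the dose as 30 with a unit written as micrometres, read here as 30 µM. The genotype label of all 6 libraries is WT, and untreated libraries are labelled none for treatment, with no mention of a solvent. Inhibition of colon cancer cells by curcumin is the stated subject. Separate cultures are not mentioned for the replicates. The p-values therefore reflect variation among these libraries alone, and that variation may be technical.

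As background, pro-survival members (BCL2, BCL2L1, which encodes BCL-XL, and MCL1) hold the effectors BAX and BAK1 in check, and the effectors, once released, form pores in the outer mitochondrial membrane. BH3-only members (BAD, BID, BBC3, PMAIP1 and BCL2L11 among those described) carry stress signals to the family, by binding pro-survival members and in some cases by activating the effectors directly. Many of these proteins are controlled after translation, by phosphorylation, cleavage or degradation, and transcript levels say nothing of that layer.

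After curcumin the transcripts of the effector BAX and of the BH3-only genes BAD and BID were higher, those of the pro-survival gene BCL2L1 and of the BH3-only gene BCL2L11 were lower, and the other 5 genes did not pass the test. With edgeR's quasi-likelihood test, 3 of 10 genes rose, where 27.2% of all genes tested were called higher, and 2 of 10 fell, where 28.9% of all genes tested were called lower (Benjamini-Hochberg adjusted p under 0.05 over all genes tested). In either direction 5 of 10 were called, against 56.1% of all genes tested, so the share of the family that moved was near that of the transcriptome. The median log2 fold change of the 10 genes was 0.18, and that of all genes tested was −0.04. Within a library, BAX counts were 0.446 to 0.546 of BCL2L1 counts after curcumin and 0.0884 to 0.145 of BCL2L1 counts in untreated cells.

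Library totals ran from 16663562 to 17893056 counts after curcumin and from 18154380 to 20311769 counts in untreated cells. The libraries were scaled with TMM factors, which were 0.716 to 0.804 after curcumin and 1.30 to 1.34 in untreated cells. Scaling by library size alone moved the median log2 fold change of all genes by −0.80; each change is therefore stated relative to the rest of the same transcriptome. The epithelial markers EPCAM, CDH1, KRT8, KRT18 and KRT19 were present in all 6 libraries, from 94.8 CPM (TMM-normalised CPM, a gene's count scaled to a common library size) upwards. EPCAM, KRT8, KRT18 and KRT19 were called higher (log2 fold changes 0.89, 1.26, 0.68 and 0.60), of which KRT8 alone was still called higher with library size alone (0.46), where KRT18 and KRT19 turned to −0.12 and −0.19. With the length trend removed, KRT18 was not called (0.17, edgeR adjusted p = 0.34) and KRT19 turned to −0.061. EPCAM, KRT18 and KRT19 were not called with the replicate block and the length and GC trends removed (0.35, 0.087 and −0.13). KRT19 was also not called without curcumin replicate 1 or 2 or untreated replicate 3 (edgeR adjusted p = 0.086, 0.094 and 0.073). CDX2 fell by 1.40 ± 0.23 (9.64 ± 2.96 CPM after curcumin, 25.4 ± 1.19 CPM in untreated cells, edgeR adjusted p = 0.00058), and the intestinal markers VIL1 and CDX1 were at most 0.873 CPM. Of 5 leukocyte markers, CD3E was at 0 in all libraries and PTPRC was at most 0.556 CPM, while CD14 and LYZ rose (CD14 averaged 19.2 ± 8.93 CPM after curcumin and 0.350 ± 0.193 CPM in untreated cells, SD, n = 3 each). The leukocyte list summed to 12.4 to 31.2 CPM after curcumin and 0.411 to 0.607 CPM in untreated cells. Of 6 fibroblast and endothelial markers, PECAM1 rose (14.9 ± 9.33 CPM after curcumin, 0.0936 ± 0.0828 CPM in untreated cells), COL1A2 and PDGFRB were near 0, COL1A1 was not called (22.9 ± 12.7 CPM after curcumin, 28.6 ± 2.65 CPM in untreated cells), and the list summed to 24.9 to 66.4 CPM after curcumin and 27.3 to 33.1 CPM in untreated cells. COL1A1 was called lower only without curcumin replicate 3 (−0.87, edgeR adjusted p = 0.0018) and with library size alone (−1.15, 0.0044). The part of these genes in the results below was not tested. In bulk libraries, fewer cells of a kind and less RNA per cell cannot be told apart.

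Promoter sequences from RefSeq (GRCh38.p14) were found for 9 of the 10 genes, all but MCL1. Those of the 2 genes with the greatest rise among the 10, BAX and BAD, and of the 2 that fell, BCL2L1 and BCL2L11, are shown so that the genes that moved in opposite directions can be set beside each other. Each is the 250 bases before the RefSeq start, 5′ to 3′ on the gene's strand, with the first start listed where the table gives several. Capitals mark matches on either strand to 3 motifs: the E-box CACGTG, the cyclic AMP response element half-site TGACG and the forkhead motif GTAAACA.
BAX, chr19:48954625-48954874, plus strand: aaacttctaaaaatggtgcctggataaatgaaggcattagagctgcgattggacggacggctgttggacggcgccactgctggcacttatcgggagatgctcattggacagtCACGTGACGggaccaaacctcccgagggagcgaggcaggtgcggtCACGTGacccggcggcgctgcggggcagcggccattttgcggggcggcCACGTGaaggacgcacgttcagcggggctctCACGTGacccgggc
BAD, chr11:64284705-64284954, minus strand: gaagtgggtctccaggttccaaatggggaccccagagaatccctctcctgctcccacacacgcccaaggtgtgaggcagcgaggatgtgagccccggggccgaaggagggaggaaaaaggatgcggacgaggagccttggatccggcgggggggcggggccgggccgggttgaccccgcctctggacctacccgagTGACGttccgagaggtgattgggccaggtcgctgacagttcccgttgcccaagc
BCL2L1, chr20:31723964-31724213, minus strand: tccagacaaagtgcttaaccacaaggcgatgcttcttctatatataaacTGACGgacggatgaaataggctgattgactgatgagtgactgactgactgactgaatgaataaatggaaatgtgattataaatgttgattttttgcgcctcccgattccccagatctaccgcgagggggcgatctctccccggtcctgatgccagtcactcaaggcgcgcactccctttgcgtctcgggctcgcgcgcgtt
BCL2L11, chr2:111120664-111120913, plus strand: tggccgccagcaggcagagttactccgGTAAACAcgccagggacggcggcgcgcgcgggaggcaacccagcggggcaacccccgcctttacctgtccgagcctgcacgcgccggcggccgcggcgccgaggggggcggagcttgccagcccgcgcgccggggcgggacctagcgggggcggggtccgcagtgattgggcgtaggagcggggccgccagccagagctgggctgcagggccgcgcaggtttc

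The BAX window held 4 E-boxes, which started 138, 93, 45 and 14 bases before the RefSeq start. Of the first-listed promoters of 27305 genes, 6.49% held at least 1 E-box and 5 promoters held at least 4. BBC3 held 1 E-box, at 232 bases. The half-site at 134 bases in BAX overlapped the E-box at 138 bases. Half-sites were also found in the windows of BAD, BCL2L1, BCL2 and PMAIP1, at 54, 201, 225 and 55 bases, and 21.7% of all promoters held one. The forkhead motif lay 223 bases before the start of BCL2L11 and in no other window of the family, and 2.98% of all promoters held it. A heat shock element (units GAA, TTC and GAA, each 2 bases from the next) was also searched and was in 0 of the 9 windows and in 0.439% of all promoters. A match describes these letters only and is not a measurement of binding.

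BCL2L1 was the pro-survival gene that fell. BCL-XL, its product, binds BAX, BAK and several BH3-only proteins. The gene (ENSG00000171552, chromosome 20, 31664452 to 31723989 on the minus strand of GRCh38 in GENCODE 29, longest protein-coding transcript 2610 bases in 3 exons) had 156, 164 and 112 CPM after curcumin, against 220.1, 193 and 246 CPM in untreated cells. All 3 treated libraries lay below all 3 untreated ones, and curcumin replicate 3 was the lowest. The fall was −0.61 ± 0.17 on the log2 scale (standard error, edgeR adjusted p = 0.013), and −1.41 with library size alone (6.3e-05). The groups did not overlap for 5 of the 10 genes, where 64.0% of all genes tested did not overlap. The antisense RNA gene ABALON overlaps exons of BCL2L1 on the opposite strand and is not analysed here. The use of strand in counting is not given in the sources used here, so reads of such a pair cannot be told apart.

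MCL1, whose short-lived product restrains BAK and binds the product of PMAIP1, was not called. The gene (ENSG00000143384, chromosome 1, 150574551 to 150579738, minus strand) had 153, 183 and 325 CPM after curcumin, against 199, 153 and 181 CPM in untreated cells. Curcumin replicate 3 stood above all other libraries, and the other 2 treated libraries lay within the untreated range or beside it. The log2 fold change was 0.31 ± 0.25 (edgeR adjusted p = 0.32), and it was −0.08 without curcumin replicate 3 (adjusted p = 0.71). ADAMTSL4-AS1, a noncoding gene on the same strand whose exons overlap those of MCL1, is not analysed here.

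BCL2, the founding pro-survival gene of the family, was the least abundant of the 10. The gene (ENSG00000171791, chromosome 18, 63123346 to 63320128, minus strand) had 42, 26 and 85 counts after curcumin, against 87, 116 and 124 counts in untreated cells. After TMM scaling these were 3.14, 2.06 and 6.65 CPM after curcumin, against 3.30, 4.77 and 4.88 CPM in untreated cells, and the groups overlapped. The log2 fold change was −0.13 ± 0.44 (edgeR adjusted p = 0.82), with a wide error at this depth, and it was −0.73 without curcumin replicate 3 (adjusted p = 0.12).

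**Figure D1:**
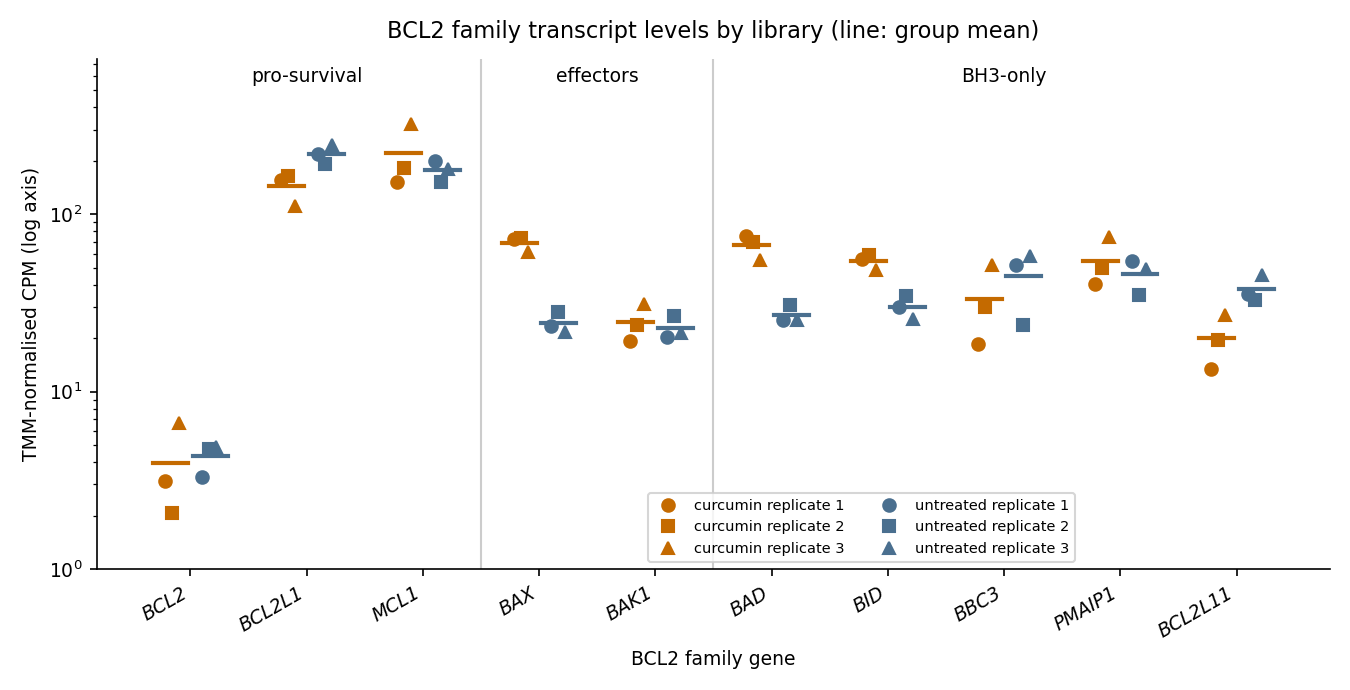
TMM-normalised CPM (log axis) of the 10 BCL2 family genes in each library, curcumin left of untreated for each gene, with a line at the group mean and a marker shape per replicate number. The groups stand apart for BCL2L1, BAX, BAD, BID and BCL2L11, and curcumin replicate 3, the orange triangle, is the highest treated library for MCL1 at 325 CPM and the lowest for BCL2L1 at 112 CPM.

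Of the effectors, which do the same work at the membrane, BAX was called and BAK1 was not; the difference between the 2 was not tested. BAX (ENSG00000087088, chromosome 19, 48954815 to 48961798, plus strand, longest protein-coding transcript 1358 bases in 5 exons) had 72.9, 73.4 and 61.1 CPM after curcumin, against 23.3, 28.1 and 21.7 CPM in untreated cells. Every treated library was above every untreated library, and the replicates of each group lay close together. BAX rose by 1.50 ± 0.17 (edgeR adjusted p = 5.8e-05), the greatest change among the 10 genes. The rise remained called in all 16 alternatives, and it was 0.82 with the trend of fold change with transcript length removed (adjusted p = 0.0020) and 0.70 with library size alone (adjusted p = 0.0060). BAK1 (ENSG00000030110, chromosome 6, 33572547 to 33580293, minus strand) had 19.3, 23.8 and 31.1 CPM after curcumin, against 20.3, 26.7 and 21.3 CPM in untreated cells. The groups overlapped, with a log2 fold change of 0.12 ± 0.21 (edgeR adjusted p = 0.66). With library size alone BAK1 was called lower (−0.70, adjusted p = 0.011).

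BAD, whose product binds BCL-XL and is held in the cytosol by 14-3-3 proteins when phosphorylated, rose. The gene (ENSG00000002330, chromosome 11, 64269830 to 64284704, minus strand, longest protein-coding transcript 1157 bases) had 75.2, 69.4 and 55.4 CPM after curcumin, against 25.2, 30.9 and 25.2 CPM in untreated cells. The groups did not overlap, and the log2 fold change was 1.30 ± 0.17 (edgeR adjusted p = 0.00017). It was 0.46 with the length trend removed (adjusted p = 0.045) and 0.50 with library size alone (0.042). Exons of GPR137, a protein-coding gene on the opposite strand, overlap those of BAD, and GPR137 also rose (31.3 ± 2.99 CPM after curcumin, 11.4 ± 1.85 CPM in untreated cells, log2 fold change 1.46 ± 0.19, edgeR adjusted p = 0.00014). How the reads of this pair were shared out is not known, so the level of BAD is uncertain.

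BID, which caspase-8 cleaves to link death receptors to mitochondria, also rose. The gene (ENSG00000015475, chromosome 22, 17734138 to 17774770, minus strand) had 56.1, 58.6 and 48.4 CPM after curcumin, against 30.1, 34.7 and 25.6 CPM in untreated cells. The 3 treated libraries were above the 3 untreated ones, with a log2 fold change of 0.85 ± 0.17 (edgeR adjusted p = 0.0018). BID kept the call with the length trend removed (0.68, adjusted p = 0.0080) and lost it with library size alone (0.049, adjusted p = 0.83).

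BCL2L11, which encodes BIM, a strong BH3-only activator, fell. The gene (ENSG00000153094, chromosome 2, 111119378 to 111168447, plus strand, longest protein-coding transcript 5231 bases) had 13.4, 19.5 and 27.0 CPM after curcumin, against 35.5, 32.8 and 45.7 CPM in untreated cells. All treated libraries were below all untreated ones, and curcumin replicate 1 was the lowest. The log2 fold change was −0.93 ± 0.25 (edgeR adjusted p = 0.0098). Once the length trend was taken out it was −0.51 and not called (adjusted p = 0.085). An exon of the noncoding gene MIR4435-2HG overlaps BCL2L11 on the opposite strand and is not analysed here.

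BBC3 and PMAIP1, which encode PUMA and NOXA and are known to be induced by cell stress, were not called. BBC3 (ENSG00000105327, chromosome 19, 47220822 to 47232766, minus strand) had 18.5, 30.1 and 51.6 CPM after curcumin, against 51.9, 23.8 and 58.3 CPM in untreated cells. Each group held a library that lay in the range of the other, and the standard error was the greatest, after BCL2, among the 10 genes (log2 fold change −0.42 ± 0.39, edgeR adjusted p = 0.38). Without curcumin replicate 3 the log2 fold change of BBC3 was −0.88 (adjusted p = 0.058), without untreated replicate 2 it was −0.74 (0.11) and without curcumin replicate 1 it was −0.14 (0.77). With library size alone BBC3 was called lower (−1.25, 0.0088). PMAIP1 (ENSG00000141682, chromosome 18, 59899948 to 59904306, plus strand) had 40.3, 49.8 and 74.0 CPM after curcumin, against 54.4, 35.0 and 48.9 CPM in untreated cells. The groups overlapped for PMAIP1 as well (0.25 ± 0.24, edgeR adjusted p = 0.41), and with library size alone PMAIP1 was called lower (−0.57, adjusted p = 0.040).

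**Figure D2:**
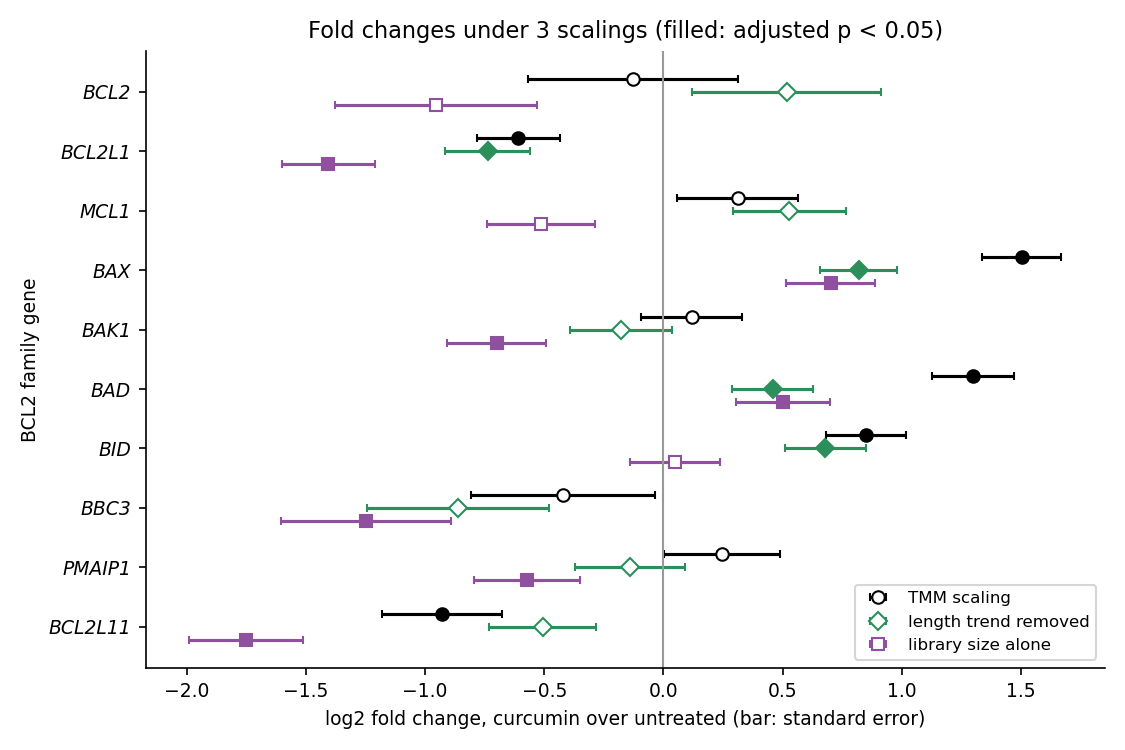
Log2 fold change, curcumin over untreated, of the 10 genes with standard errors, under TMM scaling, with the length trend removed and with library size alone; filled symbols passed an adjusted p of 0.05. BAX (1.50, 0.82 and 0.70 in that order), BAD and BCL2L1 are filled under all 3, whereas BID and BCL2L11 are open under 1 of them.

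The fold changes of the family were read beside transcript length, since across 13101 tested protein-coding genes the log2 fold change fell with length (Spearman rho −0.45, a description over genes that do not count as replicates). Split into 5 length groups, the genes of 207 to 1955 bases had a median log2 fold change of 0.81, and −0.72 was the median from 5745 bases up. BAX, BAD, BBC3 and PMAIP1 lay in the shortest group, BCL2L1, BAK1 and BID in the next (median 0.26), MCL1 in the middle group (−0.08), BCL2L11 in the fourth (−0.36) and BCL2 in the longest. BAX at 1.50 and BAD at 1.30 were above the median of their length group, and BBC3 at −0.42 and PMAIP1 at 0.25 were below it. BCL2L1 at −0.61 was below the median of its group and BID at 0.85 above it. With the length trend removed, BAX, BAD and BID were still called higher (0.82, 0.46 and 0.68) and BCL2L1 lower (−0.74, adjusted p = 0.0065).

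**Figure D3:**
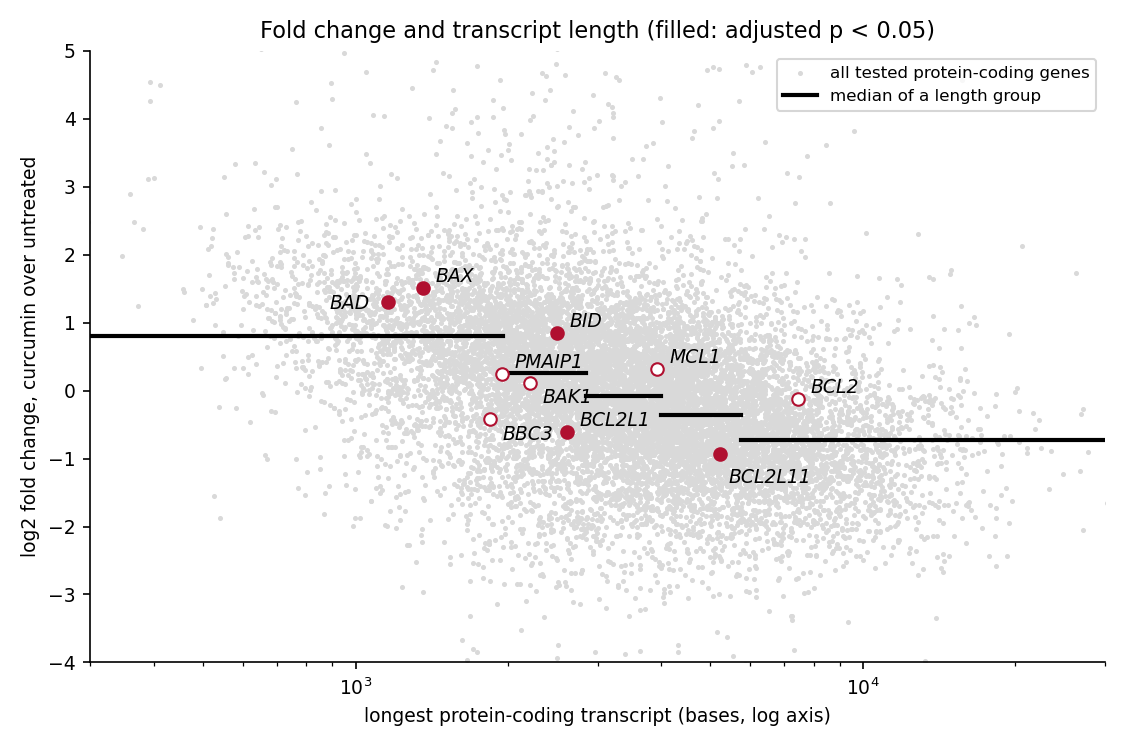
Log2 fold change, curcumin over untreated, against the length of the longest protein-coding transcript (log axis) for tested protein-coding genes in grey, some of which lie beyond the drawn range, with the median of each of 5 length groups as a black line and the BCL2 family in red (filled where called). BAX and BAD lie above the 0.81 median of the shortest group, and BCL2L1 lies below the 0.26 median of its own.

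Ratios of 2 transcripts within a library do not depend on the scaling between libraries. The ratio of BAX to BCL2L1 counts was 0.468, 0.446 and 0.546 after curcumin, against 0.106, 0.145 and 0.0884 in untreated cells. The groups did not overlap, and the ratio was 4.38-fold higher after curcumin (log2 difference 2.13). The ratio of BAX to BCL2 counts, often quoted as a balance of death and survival, was 23.2, 35.6 and 9.20 after curcumin, against 7.07, 5.89 and 4.45 in untreated cells. It was 3.45-fold higher (log2 difference 1.79), without overlap, and curcumin replicate 3 lay nearest to the untreated libraries. These ratios carry the trend with transcript length (BAX 1358 bases, BCL2 7461 bases), and once that trend was taken out the log2 fold changes were 0.82 for BAX and 0.52 for BCL2, the second not called. For each of these 2 ratios the two-sided exact permutation p was 0.1, the smallest that 3 against 3 libraries allow (0.2 adjusted over the 4 ratios computed).

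NOXA, the product of PMAIP1, binds MCL1 and is known to promote its degradation. The ratio of PMAIP1 to MCL1 counts was 0.264, 0.272 and 0.228 after curcumin, against 0.274, 0.230 and 0.270 in untreated cells, with a log2 difference of −0.018 (two-sided exact permutation p = 0.6, 0.6 adjusted over the 4 ratios). In curcumin replicate 3, which held the most MCL1, PMAIP1 was also at its highest. The ratio of BCL2L11 to BCL2L1, both of which fell, was 0.0860, 0.119 and 0.241 after curcumin, against 0.161, 0.170 and 0.186 in untreated cells. The treated values lay on both sides of the untreated ones (log2 difference −0.35, exact permutation p = 0.5, 0.6 adjusted), and the difference was −0.025 without curcumin replicate 1 and −0.77 without curcumin replicate 3. The PMAIP1 to MCL1 ratio (1948 and 3932 bases) and the BCL2L11 to BCL2L1 ratio (5231 and 2610 bases) also carry the trend with transcript length. With that trend removed, BCL2L11 was not called and BCL2L1 was still called lower.

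**Figure D4:**
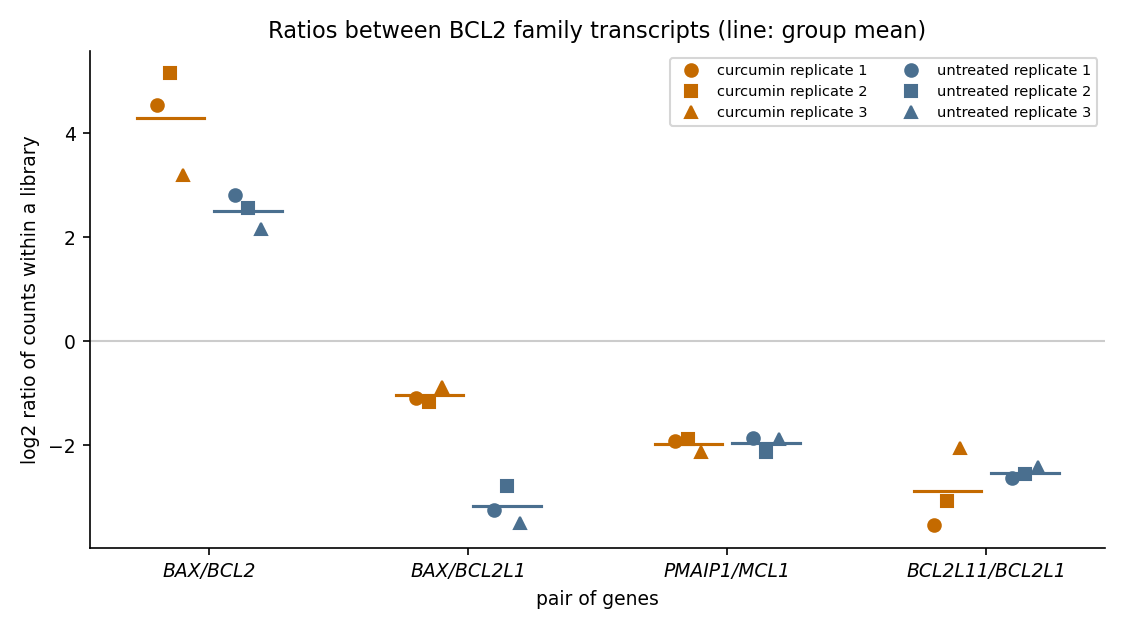
Log2 ratio of counts within each library for 4 pairs of BCL2 family genes, curcumin left of untreated, with a line at the group mean. BAX over BCL2L1 averages −1.04 after curcumin and −3.17 in untreated cells, while PMAIP1 over MCL1 averages −1.98 after curcumin and −1.96 in untreated cells.

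Levels of different genes were compared only per length, as counts per kilobase of the longest protein-coding transcript, scaled to the same total in each library (TPM-like). The longest transcript may not be the one in use, and these levels order genes within a group and are not compared between groups. After curcumin BAD (mean 83.1), BCL2L1 (79.4), MCL1 (79.4) and BAX (73.2) led, and each overlapped its neighbour in this order. PMAIP1 (39.9), BID (31.3), BBC3 (25.6) and BAK1 (15.9) followed, each again overlapping its neighbour, then BCL2L11 (5.41) and BCL2 (0.753), each set apart. In untreated cells BCL2L1 led at 278 ± 31.9 TPM-like units, apart from MCL1 at 149 ± 12.3 (SD, n = 3), which was in turn apart from BBC3 (79.7), BAD (77.8), PMAIP1 (77.7) and BAX (59.6). BID (40.05), BAK1 (34.2) and BCL2L11 (24.03) came next, and each overlapped its neighbour, with BCL2 last at 1.93.

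The make-up of each functional class was read on the same per-length scale, as shares within each library. Of the summed effector level, BAX made up 86.0%, 83.4% and 76.2% after curcumin, against 65.2%, 63.1% and 62.4% in untreated cells, with no overlap. Of the pro-survival level, BCL2L1 made up 60.3%, 57.3% and 34.0% after curcumin, against 62.3%, 65.2% and 66.9% in untreated cells. The difference in the pro-survival class lay mostly in curcumin replicate 3, where MCL1 took 65.3%. Among the 5 BH3-only genes, BCL2L11 made up 2.12%, 2.89% and 3.72% after curcumin, against 7.02%, 8.05% and 8.95% in untreated cells. BAD made up 53.8%, 46.5% and 34.6% of that class after curcumin, against 22.5%, 34.3% and 22.3% in untreated cells, where the closest values were 34.6% and 34.3%. No test was made on these shares. They carry the trend of fold change with transcript length. BAX (1358 bases) is shorter than BAK1 (2212 bases), and BAD (1157 bases) is shorter than BCL2L11 (5231 bases). The level of BAD, and so each BH3-only share, is also uncertain because of the overlap with GPR137.

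Other genes of the family were called in both directions. Of 13 listed, 10 were tested, 2 were called higher and 4 lower, where 27.2% and 28.9% of all genes tested were. Their median was −0.04, as over all genes tested. BCL2L15, a little-studied gene of the family, rose (9.65 ± 4.07 CPM after curcumin, 0.576 ± 0.428 CPM in untreated cells, SD, n = 3 each; 4.06 ± 0.54, edgeR adjusted p = 0.00017), and BCL2L12 rose by 0.70 ± 0.21, which was not called without curcumin replicate 2 (adjusted p = 0.063), without untreated replicate 1 (0.052) or once the length trend was taken out (0.30). BOK, a BAX-like effector, fell (25.7 ± 4.47 CPM after curcumin, 59.2 ± 6.82 CPM in untreated cells; −1.20 ± 0.18, adjusted p = 0.00031). The BH3-only gene BMF fell by 2.37 ± 0.50 to 1.48 ± 0.645 CPM after curcumin, against 7.65 ± 3.93 CPM in untreated cells. HRK, another BH3-only gene, fell by 1.78 ± 0.65 (adjusted p = 0.040) to 1.04 ± 0.869 CPM after curcumin, against 3.58 ± 1.39 CPM in untreated cells. Its level in curcumin replicate 1 was 0.224 CPM, or 3 counts. The fall of HRK was not called without curcumin replicate 1 or 2 or untreated replicate 1 or 3 (adjusted p = 0.069, 0.098, 0.13 and 0.13). It was also not called with the length trend removed, or with the replicate block and the length and GC trends removed. BCL2L13, a mitophagy receptor, fell by 0.47 ± 0.15, not called without curcumin replicate 2 (adjusted p = 0.076) or untreated replicate 3 (adjusted p = 0.077) or with the length trend removed (adjusted p = 0.77). The pro-survival gene BCL2A1 was at most 0.156 CPM in any library and was not tested.

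Genes whose products bind the family or set its protein turnover were called higher in 8 and lower in 3 of 19 tested, where 27.2% and 28.9% of all genes tested were. The median of the list was 0.18 and that of all genes tested −0.04, and with library size alone 2 were higher and 11 lower. VDAC2, an outer-membrane channel that holds BAK, rose (536 ± 35.2 CPM after curcumin, 177 ± 16.9 CPM in untreated cells; 1.60 ± 0.14, edgeR adjusted p = 1.9e-05). CLU, a chaperone known to bind activated BAX, rose by 2.71 ± 0.25 (1685 ± 615 CPM after curcumin, 258 ± 23.6 CPM in untreated cells), and TMBIM6, the membrane protein BAX inhibitor 1, rose by 0.87 ± 0.15. The call of TMBIM6 was lost with library size alone. BTRC, a substrate receptor of a ubiquitin ligase, fell by 1.11 ± 0.16. The 14-3-3 gene YWHAG fell by 0.48 ± 0.14 and DYNLL2, a dynein light chain that binds BMF, fell by 0.40 ± 0.14. The call of YWHAG was lost without curcumin replicate 2 (adjusted p = 0.066), and that of DYNLL2 without curcumin replicate 1 or 2 or untreated replicate 3 (0.12, 0.080 and 0.091). With the length trend removed neither was called, and DYNLL2 turned to 0.23. Of their paralogues, YWHAE, YWHAQ and DYNLL1 were called higher (0.69, 0.49 and 0.87). None of these 3 was called with library size alone (−0.11, −0.31 and 0.065) or with the length trend removed (0.40, 0.20 and 0.21). The call of YWHAQ was also lost without curcumin replicate 1 or 2 or untreated replicate 1 or 3 (adjusted p = 0.079, 0.094, 0.065 and 0.083). It was lost with all genes unfiltered as well (0.051). The other 14-3-3 genes YWHAB, YWHAH, YWHAZ and SFN were not called under TMM scaling (log2 fold changes −0.23, 0.30, 0.051 and −0.53). HUWE1 and USP9X, a ligase and a deubiquitinase known to act on MCL1, were not called (log2 fold changes 0.026 ± 0.17 and −0.10 ± 0.18, edgeR adjusted p = 0.91 and 0.66).

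Of 13 tested genes for caspases, their regulators and proteins released from mitochondria, 3 were called higher and 6 lower, where 27.2% and 28.9% of all genes tested were (median −0.29, all genes −0.04). With library size alone these were 0 higher and 10 lower. The 3 that rose encode proteins released from mitochondria. ENDOG and AIFM1, which also encode such proteins, were not called (log2 fold changes −0.014 ± 0.18 and −0.18 ± 0.20, edgeR adjusted p = 0.96 and 0.48). With library size alone ENDOG and AIFM1 were among the 10 called lower. CYCS, cytochrome c, rose by 1.01 ± 0.17 (211 ± 32.1 CPM after curcumin, 105 ± 16.1 CPM in untreated cells). DIABLO, an antagonist of inhibitor of apoptosis proteins, matched 2 rows of the table, and the row with enough counts to be tested (ENSG00000184047) rose by 1.16 ± 0.16, and the protease HTRA2 rose by 0.50 ± 0.15, which was not called without curcumin replicate 2 or untreated replicate 1 or 3 (edgeR adjusted p = 0.067, 0.057 and 0.073). Under library size alone none of the 3 that rose was called (edgeR adjusted p = 0.34, 0.078 and 0.14 for CYCS, DIABLO and HTRA2). HTRA2 kept its direction and call in only 8 of 16 alternatives, and CYCS and DIABLO in 15 of 16 each. XIAP, an inhibitor of caspases, fell to 9.68 ± 2.06 CPM after curcumin, against 47.4 ± 1.41 CPM in untreated cells (−2.29 ± 0.19, edgeR adjusted p = 1.6e-05). CASP8, which cleaves BID, fell by 1.97 ± 0.26 (6.74 ± 2.31 CPM after curcumin, 26.5 ± 1.03 CPM in untreated cells) and the initiator caspase gene CASP2 fell by 0.90 ± 0.16.

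Of 15 tested transcription factors with known targets in the family, 5 rose and 4 fell, where 27.2% of all genes tested were called higher and 28.9% lower (median −0.26, all genes −0.04). With library size alone 2 were higher and 9 lower. DDIT3 (CHOP), known to raise BCL2L11 and BBC3 and to lower BCL2, rose to 150 ± 68.6 CPM after curcumin, against 14.8 ± 7.90 CPM in untreated cells (3.34 ± 0.46, edgeR adjusted p = 0.00022). ATF3 and ATF4, stress factors linked to PMAIP1 and BBC3, rose by 2.42 ± 0.38 and 1.33 ± 0.25, and the cell-cycle factor E2F1 by 1.02 ± 0.18. With library size alone ATF4 and E2F1 were not called (adjusted p = 0.057 and 0.34). FOXO3, a forkhead factor known to activate BCL2L11 and BBC3, fell to 19.96 ± 9.29 CPM after curcumin, against 74.8 ± 10.6 CPM in untreated cells (−1.91 ± 0.29, edgeR adjusted p = 0.00037). FOXO1 fell by 1.17 ± 0.30, which was not called once the length trend was taken out (adjusted p = 0.068), while TP73 fell by 1.26 ± 0.24 and NFKB1 by 0.89 ± 0.18.

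**Figure D5:**
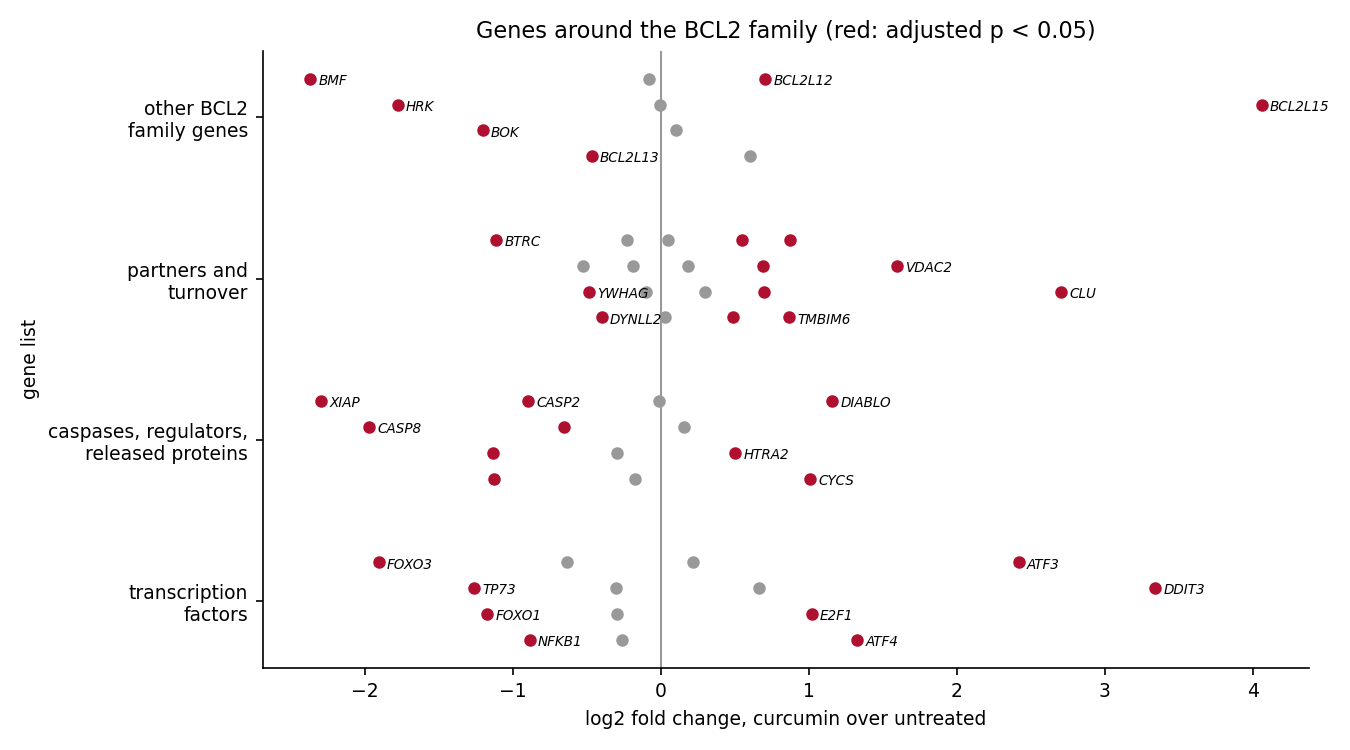
Log2 fold change, curcumin over untreated, of the tested genes reported from 4 lists around the BCL2 family, each point a gene, red where the adjusted p was under 0.05. Labels mark the genes picked by the naming rule given with the processing, and genes that the text names besides that rule have none. Each list holds genes on both sides of 0, from BMF at −2.37 to BCL2L15 at 4.06.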

How the data were processed

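The authors deposited 1 table of estimated counts (expected read counts per gene, many not whole), unscaled between libraries. Libraries were made with a SMARTer mRNA-Seq kit, per the labels' protocols. No label names the aligner, counter or annotation. GRCm38 and mm10, both mouse, are the builds in the submitters' processing notes, but all 35106 rows carry human Ensembl identifiers, so the table was read as human. Of these, 35003 were found in GENCODE 29 (GRCh38), which gave positions and transcript lengths.

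The estimated counts were rounded, passed through filterByExpr (at least 10 counts, total at least 15), TMM-scaled and tested with the quasi-likelihood test of edgeR 4.0.16 (R 4.3.3) over all 6 libraries, with p-values adjusted over all 13718 genes tested. Standard errors are the absolute log2 fold change over the square root of F. Replicates differed beyond sampling noise (chi-square per degree of freedom 9.44 to 56.6). A floor of 3 counts was 0.224 to 0.238 CPM after curcumin and 0.114 to 0.123 CPM in untreated libraries. It covers counting error only, because no molecular identifiers separate copies of a molecule.

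The members, the 4 related lists (62 genes, 57 tested) and the motifs were chosen with earlier results of these data known. The text names all members and, per list, up to 3 rising and 3 falling genes with the smallest adjusted p, and every called gene of a direction with 5 or fewer. A called list gene and a marker are not reported here. YWHAE, YWHAQ, YWHAB, YWHAH, YWHAZ, SFN, DYNLL1, HUWE1, USP9X, ENDOG, AIFM1, BCL2A1, GPR137 and the markers were named besides this rule, after their values were seen. Alternatives were RLE factors, library size alone, library size less the top 100 genes, all genes unfiltered, genes averaging 50 counts or more, DESeq2 1.42.0, limma-voom (limma 3.58.1), each library left out, the replicate block, and length or length and GC trends removed (loess span 0.3).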

Additional observations from a re-analysis of the deposited data

How the results depend on the processing

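BAX, BAD and BCL2L1 kept their direction and their call in all 16 alternatives, and BID and BCL2L11 in 15 of 16 each. With library size alone, 1320 genes were higher and 7744 lower over all genes tested, and 5 members were called lower: BID was not called (0.049, adjusted p = 0.83), BBC3 was called lower (−1.25, 0.0088), and MCL1, BAK1 and PMAIP1 turned to −0.51, −0.70 and −0.57. When the top 100 genes by abundance were left out of the library size, these 3 were −0.066, −0.25 and −0.13. With the length trend removed, 1 member was called lower, BCL2L11 was not called (−0.51, 0.085), and BCL2, BAK1 and PMAIP1 turned to 0.52, −0.18 and −0.14. With the replicate block and the length and GC trends removed they were 0.41, −0.28 and −0.037. Leaving out each library in turn gave 3 members higher and 2 lower every time, 3253 to 3843 genes higher and 3369 to 4306 lower. Ranges over these were −0.73 to 0.17 for BCL2, −0.076 to 0.51 for MCL1, −0.078 to 0.26 for BAK1, −0.031 to 0.42 for PMAIP1, −0.88 to −0.14 for BBC3, −0.099 to 0.059 for the log2 ratio of PMAIP1 to MCL1, −0.77 to −0.025 for BCL2L11 to BCL2L1 and 1.36 to 2.33 for BAX to BCL2. Other list results that moved, higher then lower: other BCL2 family genes 1 and 7 with library size alone, 1 higher without the 100 most abundant genes and 1 higher with the length trend removed (leave-one-out 1 to 3 and 2 to 4); partners and turnover 2 and 11 with library size alone and 4 and 6 without the 100 most abundant genes (leave-one-out 6 to 9 and 1 to 5); caspases, regulators and released proteins 0 and 10 with library size alone; transcription factors 2 and 9 with library size alone and 8 lower without the 100 most abundant genes. BCL2L12 (−0.10) and HTRA2 (−0.30) turned with library size alone, and DYNLL2 with the length trend removed (0.23) and with the replicate block and both trends removed (0.17). The cause of these changes was not tested. The 2 groups share replicate numbers. Deviations from the group mean correlated weakly between same-numbered libraries (r = 0.038, 0.020 and 0.10). For differently numbered libraries r ran from −0.080 to 0.036. Values this small cannot decide whether the numbers pair the samples. As a fit, the replicate block gave 3683 genes higher and 4011 lower, with 3 members higher and 2 lower. Depth limits BCL2 most, at 26 to 124 counts a library.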

Other observations

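Curcumin replicate 3 had the highest level of the 3 treated libraries for BCL2, MCL1, BAK1, BBC3, PMAIP1 and BCL2L11, and the lowest for BCL2L1, BAX, BAD and BID. Untreated replicate 2 had the lowest level of the 3 untreated libraries for MCL1, BBC3, PMAIP1, BCL2L1 and BCL2L11, and the highest for BAX, BAK1, BAD and BID. DDIT3 was at 94.2, 130 and 227 CPM after curcumin, against 19.3, 5.68 and 19.4 CPM in untreated cells, so curcumin replicate 3 and untreated replicate 2 were its extremes as well. ATF3 was at 171, 192 and 292 CPM after curcumin, against 42.4, 18.1 and 61.7 CPM in untreated cells, with the same 2 libraries at the extremes. These orders were seen after the values and were not tested. Over all genes with counts, the same 2 libraries differed most from the others of their group. Chi-square per degree of freedom was 33.7 and 26.7 for pairs with curcumin replicate 3, and 9.44 for the remaining treated pair. It was 48.6 and 56.6 for pairs with untreated replicate 2, and 15.3 for the remaining untreated pair. Whether the orders are particular to the genes named was not tested.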
